A study of Mus musculus with 14 samples.

Results

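Heat shock proteins are molecular chaperones, and 10 of their genes were followed here in microglia sorted from mouse retina: Hspa8, Hspa5, Hspa1a, Hspa1b, Hsp90aa1, Hsp90ab1, Hsp90b1, Dnaja1, Dnajb1 and Hspd1. They were chosen by symbol, and all 10 were found among the 35735 genes of the deposited series table. Of these, 9 passed the filter on low counts and were tested with 7605 genes in all, and Hspa1b was not. RNA was sequenced from cells labelled as resident microglia, sorted as CD11b+, Fcrls+ and Ly6c-, with 1 retina to a library, from mice aged 12 weeks in every group. The groups were APOE E3/E3 retinas with a microbead injection (APOE3 microbead, n = 3), APOE E3/E3 retinas with a sham injection (APOE3 sham, n = 4), APOE E4/E4 retinas with a microbead injection (APOE4 microbead, n = 3) and APOE E4/E4 retinas with a sham injection (APOE4 sham, n = 4). Microbeads placed in the eye obstruct fluid outflow and raise eye pressure, which is used as a model of glaucoma. The labels do not say whether the retinas came from separate animals, so each p-value measures only the spread between these libraries.

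Chaperones bind unfolded or partly folded proteins and use cycles of ATP binding and hydrolysis to help them fold, assemble or be degraded. HSP70 proteins work with J-domain partners that deliver clients and start ATP hydrolysis, and HSP90 proteins act later, on kinases, receptors and other nearly folded clients. Some of the genes are transcribed steadily, some are switched on by heat shock factor 1 when cytosolic proteins misfold, and those of the endoplasmic reticulum (ER) respond to the unfolded protein response. In microglia, chaperone genes are also among those that can be induced while tissue is dissociated into single cells.

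Libraries held 450981 to 727264 reads assigned to genes, of which 632 to 2203 fell on the 10 chaperone genes and 39.5% to 65.1% on the 12 most abundant genes, mostly predicted genes named Gm. All 13 microglial marker genes had reads in every group, Fcrls included, with a summed level of 12274 ± 2898 CPM in APOE3 microbead, 18824 ± 2272 in APOE3 sham, 18694 ± 1430 in APOE4 microbead and 17584 ± 1530 in APOE4 sham (SD, n = 3, 4, 3 and 4; CPM are depth-scaled counts with TMM factors). Markers of other cells were present as well. The summed level of 12 monocyte markers was 863 ± 639 CPM in APOE3 microbead (1548, 757 and 283 in libraries 1 to 3), 57.7 ± 13.5 in APOE3 sham, 104 ± 93.3 in APOE4 microbead and 49.0 ± 6.55 in APOE4 sham. Fn1, fibronectin, had 1017 reads in APOE3 microbead, against 58 in APOE3 sham, Ccr2, a monocyte chemokine receptor, 150 against 28, Chil3 147 against 4, F10 52 against 6 and S100a6 41 against 0. Ly6c2, a gene for the antigen excluded by the sort, had 4 reads in APOE3 microbead, against 6 in APOE3 sham. No marker of the 12 was at 0 in APOE3 microbead or APOE4 microbead, while 2 were at 0 in APOE3 sham (S100a4 and S100a6) and 1 in APOE4 sham (Ifitm6). Rod photoreceptor markers summed to 495 ± 309, 1104 ± 926, 562 ± 252 and 829 ± 646 CPM in the same order of groups. Immediate-early and dissociation genes, without chaperones, summed to 2346 ± 1479 CPM in APOE3 microbead, 3488 ± 2933 in APOE3 sham, 1746 ± 1124 in APOE4 microbead and 1997 ± 1174 in APOE4 sham, and these ranges overlapped in all 4 groups.

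RefSeq promoter windows of GRCm38.p6 were at hand for 7 of the 10 genes (11 windows), and the 250 bases upstream of each annotated start were searched on both strands for 2 motifs. The heat shock element, read here as GAANNTTC or TTCNNGAA (N is any base), is the core bound by heat shock factors. The ER stress element, CCAAT and CCACG separated by 9 bases, is the site through which ATF6 and its partner NF-Y act on ER chaperone genes. Heat shock elements lay in windows of Hspa1a, Hspa1b, Dnaja1 and Hspd1, and ER stress elements in those of Hspa5 and Hsp90b1. Among 32851 windows of the same length, 12.8% held at least 1 heat shock element, and 0.113% held at least 1 ER stress element. Hsp90b1 had 2 ER stress elements, 1 of them on the opposite strand, where its capitals read CGTGG and ATTGG; 1 of the 32851 windows held 2. The windows of both inducible HSP70 genes and of Hsp90b1, cut where an annotated exon begins, are shown 5′ to 3′ on the gene's strand because they carry the contrast between cytosolic and ER elements, with the matching bases in capitals.
Hspa1a, chr17:34972157-34972406, minus strand: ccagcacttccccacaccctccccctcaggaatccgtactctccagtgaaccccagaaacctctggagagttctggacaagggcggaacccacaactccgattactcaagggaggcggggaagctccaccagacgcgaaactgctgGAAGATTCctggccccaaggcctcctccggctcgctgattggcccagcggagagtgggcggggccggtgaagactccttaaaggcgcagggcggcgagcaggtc
Hspa1b, chr17:34959239-34959488, minus strand: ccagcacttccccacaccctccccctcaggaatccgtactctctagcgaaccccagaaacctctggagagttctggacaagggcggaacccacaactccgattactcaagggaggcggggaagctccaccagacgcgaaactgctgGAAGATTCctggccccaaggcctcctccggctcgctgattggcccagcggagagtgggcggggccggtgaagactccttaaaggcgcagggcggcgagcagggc
Hsp90b1, chr10:86705510-86705694, minus strand: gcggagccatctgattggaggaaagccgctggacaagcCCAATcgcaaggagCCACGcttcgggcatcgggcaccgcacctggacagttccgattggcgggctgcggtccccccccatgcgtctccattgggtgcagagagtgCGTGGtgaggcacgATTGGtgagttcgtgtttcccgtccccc

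For the other genes with a match, 30 bases around it are shown. The Hspa5 site begins 65 bases upstream of the RefSeq start, and the Hspd1 stretch holds 3 overlapping heat shock elements. The sites of Hspa5, Hspd1 and Dnaja1 lie inside the gene coordinates printed below, which are from GENCODE and begin farther upstream.
Hspa5, chr2:34772020-34772049, plus strand: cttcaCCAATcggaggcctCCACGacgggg
Hspd1, chr1:55088053-55088082, minus strand: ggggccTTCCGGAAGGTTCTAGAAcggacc
Dnaja1, chr4:40722333-40722362, plus strand: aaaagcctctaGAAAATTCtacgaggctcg
Neither Dnajb1 window held a heat shock element in these letters, which says nothing of the rest of the gene. Windows of Hspa8, Hsp90aa1 and Hsp90ab1 were not analysed here. A match is a description of the sequence and was not tested as a binding site.

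**Figure D1:**
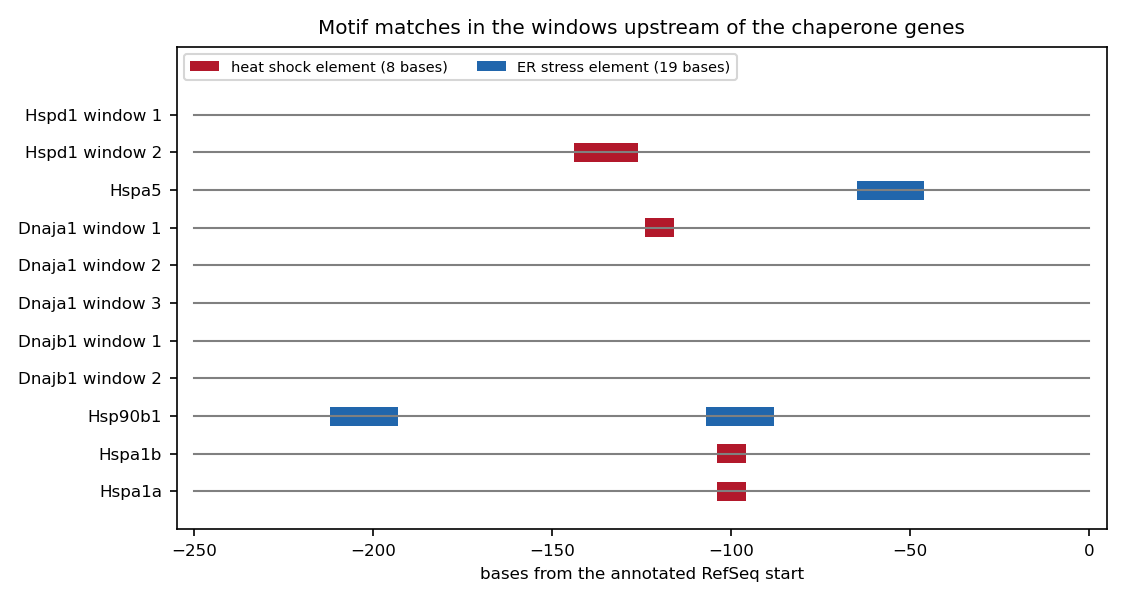
Positions of motif matches in the 11 windows of 7 chaperone genes. The horizontal axis is the distance in bases from the annotated RefSeq start, red bars are heat shock elements and blue bars ER stress elements. Hspa1a and Hspa1b share the position of their element, 104 bases upstream, Hsp90b1 has 2 blue bars and Hspa5 has 1, and the red bar of Hspd1 is 3 overlapping matches.

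Levels between genes are compared in TPM, the deposited unit scaled for transcript length and depth. Hspa8, the constitutive HSP70 of the cytosol, was the most abundant at 96.8 ± 50.3 TPM (SD over all 14 libraries), ahead of Hsp90ab1, the constitutive cytosolic HSP90, at 56.6 ± 27.6 TPM. The ER chaperones followed, Hspa5 (BiP) at 41.7 ± 21.1 and Hsp90b1 (GRP94) at 34.9 ± 15.8 TPM. Below them stood Dnaja1 at 16.3 ± 8.48, Hsp90aa1 at 11.3 ± 6.82, Dnajb1 at 7.07 ± 3.98, the mitochondrial chaperonin Hspd1 at 5.84 ± 2.48, Hspa1a at 2.92 ± 3.06 and Hspa1b at 0.124 ± 0.27 TPM. Hspa8 stood above Hsp90ab1 and Hsp90b1 above Dnaja1 in 14 of 14 libraries. Other neighbours exchanged places in some libraries: Dnajb1 was above Hspd1 in 8 of 14 and Dnaja1 above Hsp90aa1 in 9 of 14, and these pairs did not differ beyond their spread.

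**Figure D2:**
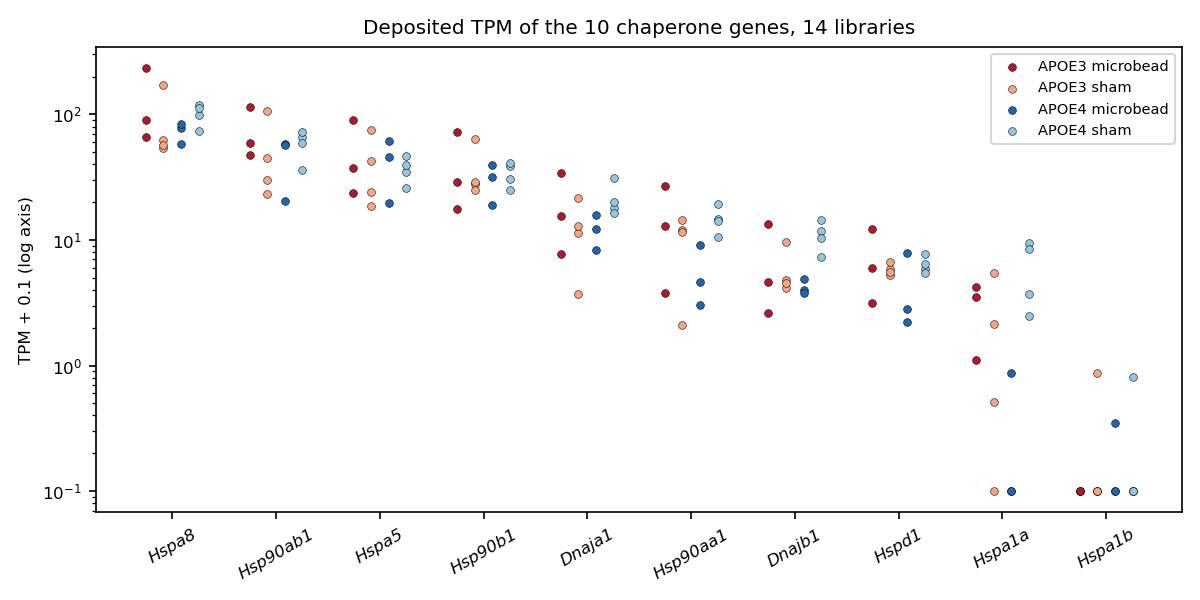
Deposited TPM plus 0.1 on a log axis for each of the 10 genes, 1 point per library, coloured by group. The genes span from 96.8 TPM on average for Hspa8 to 0.124 for Hspa1b, and points at the bottom are libraries listed at 0.

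The comparison of microbead with sham within each genotype asks how microglia respond to the glaucoma model, and the interaction, the APOE4 response minus the APOE3 response on the log2 scale, asks whether the genotypes respond differently. In APOE3 retinas all 9 tested chaperone genes had log2 fold changes above 0 with microbeads, and 1 of them, Hspa8, passed the test and rose. Without APOE3 microbead 2, 6 of the 9 were above 0, and Hsp90b1 (-0.23), Dnajb1 (-0.26) and Hspd1 (-0.02) were below. Without both APOE3 microbead 1 and 2, 5 of the 9 were above 0. With the edgeR quasi-likelihood test and Benjamini-Hochberg adjustment over all genes, 5.15% of all genes tested were called in that comparison, so 1 of 9 is near the background. At an unadjusted p under 0.05 the count was 2 of 9, Hspa8 and Hsp90ab1, against 14.7% of all genes. The median log2 fold change of the 9 genes was 0.39, against -0.02 over all genes tested.

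In APOE4 retinas the log2 fold changes of Hspa1a, Hsp90aa1 and Dnajb1 were -3.91, -1.21 and -1.0, and those of the other 6 tested chaperone genes lay between -0.23 and 0.31. No chaperone gene passed the adjusted threshold in APOE4 microbead against APOE4 sham (0 of 9 with edgeR, and 0 of the 8 that DESeq2 gave an adjusted p, Hspa1a having none), where 0.197% of all genes did with edgeR. At an unadjusted p under 0.05 there were 3 of 9, Hspa1a, Hsp90aa1 and Dnajb1, all lower with microbeads, against 6.5% of all genes. For the same 3 genes every microbead library lay below every sham library, which held for 4.14% of all genes. In the interaction, edgeR called 0 of the 9 genes, against 0.092% of all genes, and DESeq2 called 0 of the 4 to which it gave an adjusted p, with none for Hspa1a, Hsp90aa1, Dnajb1, Dnaja1 and Hspd1. At an unadjusted p under 0.05 there were 5, Hspa1a, Hsp90aa1, Dnajb1, Hsp90ab1 and Hspa8, all negative, against 8.17% of all genes. The median over the 9 genes was 0.39 in APOE3, -0.21 in APOE4 and -0.72 in the interaction, against -0.02, -0.00 and 0.01 over all genes, and these comparisons share libraries.

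The genotypes were also compared under each injection. Between APOE4 sham and APOE3 sham, edgeR and DESeq2 each called 0 of 9 chaperone genes, against 0.0131% of all genes with edgeR. At an unadjusted p under 0.05 there were 3, Hspa1a, Hsp90aa1 and Dnajb1, all higher in APOE4 sham, against 4.4% of all genes. Between APOE4 microbead and APOE3 microbead, edgeR called 0 of 9, against 0.579% of all genes, and DESeq2 called 0 of the 7 to which it gave an adjusted p, with none for Hspa1a and Hspd1. By edgeR, 4 had an unadjusted p under 0.05, all lower in APOE4, against 9.74%. Those 4 were Hspa1a, Hspa8, Hsp90aa1 and Hsp90ab1. In CPM, 2 of them, Hspa1a and Hsp90aa1, had every APOE4 microbead library below every APOE3 microbead library. This held for 7.28% of all genes. In TPM it held for Hspa1a, but Hsp90aa1 overlapped (2.91 to 8.95 in APOE4, 3.65 to 27.0 in APOE3).

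**Figure D3:**
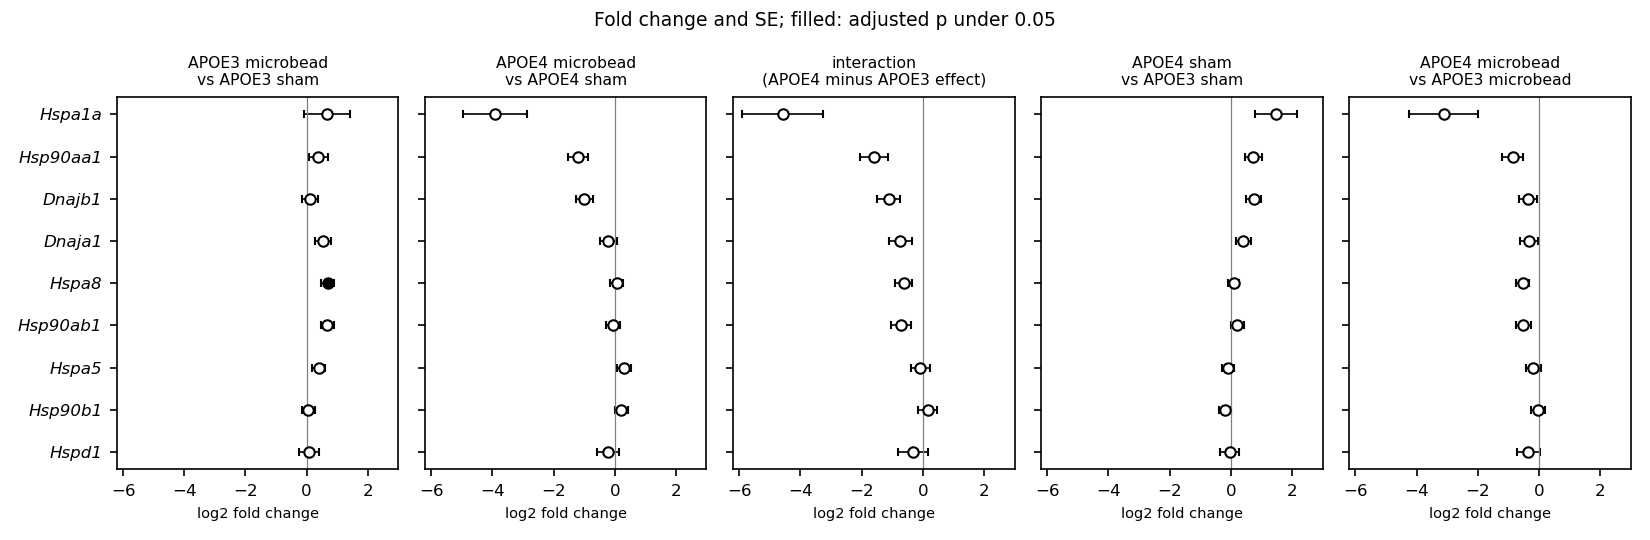
Log2 fold change (point) and standard error (bar) of the 9 tested chaperone genes in the 5 comparisons; a filled point is an adjusted p under 0.05. The filled point is Hspa8 in APOE3 microbead against APOE3 sham (0.69), and Hspa1a, Hsp90aa1 and Dnajb1 lie left of 0 in APOE4 microbead against APOE4 sham (-3.91, -1.21 and -1.0) and right of 0 between the sham groups (1.47, 0.74 and 0.75).

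Hspa1a encodes the classical inducible HSP70, made in large amounts after heat or proteotoxic stress (ENSMUSG00000091971, mm10 as for all genes here, chromosome 17, 34969190 to 34972156, minus strand). Its reads were 4, 0 and 0 in the APOE4 microbead libraries, against 17, 12, 33 and 26 in APOE4 sham. In APOE3 the reads were 6, 19 and 18 with microbeads, against 0, 12, 2 and 23 with sham. APOE4 microbead libraries were thus the lowest as a group and APOE4 sham the highest, without overlap between them, while both APOE3 groups spread widely.

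Scaled for depth, Hspa1a averaged 2.68 ± 4.65 CPM in APOE4 microbead and 39.5 ± 17.6 in APOE4 sham (SD, n = 3 and 4). The log2 fold change was -3.91 ± 1.03 (SE, edgeR adjusted p = 0.217, unadjusted p = 0.00185). As a ratio of summed reads corrected for depth it was 0.0611, with an exact 95% interval of 0.0163 to 0.162 that covers counting error only. The call depended on the setting: the adjusted p of edgeR was 2.98e-06 with no filter on low counts and 0.048 without APOE3 sham 1, and DESeq2 gave no adjusted p for this gene. All 4 reads of APOE4 microbead were in library 1. In the 2 libraries at 0, a limit of 3 counts over both puts the level at least 15.4-fold below APOE4 sham. That limit follows from leaving out the library with reads and takes the sham level as exact. For the whole group the interval above, up to a ratio of 0.162, stands. The fitted value without library 1, -7.57 (edgeR adjusted p = 0.141), is no bound. In APOE3 microbead it averaged 22.3 ± 9.31 CPM and in APOE3 sham 13.2 ± 13.3, with overlap (0.67 ± 0.76, edgeR adjusted p = 0.805). The interaction was -4.58 ± 1.31 (edgeR adjusted p = 0.258, 0.000174 with no filter on low counts).

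Between the microbead groups the Hspa1a log2 fold change was -3.11 ± 1.13 for APOE4 over APOE3 (edgeR adjusted p = 0.336, 0.00285 with no filter), and the ratio of reads was 0.105 with a counting interval of 0.0275 to 0.29. In the 2 APOE4 microbead libraries at 0, a limit of 3 counts over both puts the level at least 8.9-fold below APOE3 microbead. This again leaves out the library with reads, and for the whole group the counting interval stands. Between the sham groups it was 1.47 ± 0.68 (edgeR adjusted p = 0.962), with overlapping libraries. Hspa1b, the neighbouring twin of Hspa1a (ENSMUSG00000090877, chromosome 17, 34956436 to 34959238, minus strand), had 7 reads in all: 4 in APOE3 sham 1, 2 in APOE4 sham 4 and 1 in APOE4 microbead 3. It was at 0 in the other 11 libraries. There, 0 reads allow up to 3.34 to 6.79 CPM by library (3 counts of the total). The coding sequences of Hspa1a and Hspa1b are identical at 1915 of 1926 aligned positions (99.4%), so the division of reads between them is uncertain. With both summed into 1 feature the APOE4 microbead against sham value was -3.65 ± 0.74 and passed (edgeR adjusted p = 0.0413), with 5 reads in APOE4 microbead and 90 in APOE4 sham.

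Hsp90aa1 encodes the stress-inducible cytosolic HSP90 (ENSMUSG00000021270, chromosome 12, 110690605 to 110702728, minus strand). It had 28.2, 26.6 and 41.5 CPM in APOE4 microbead, against 91.5, 67.9, 60.5 and 79.3 CPM in APOE4 sham. The APOE4 groups did not overlap, and the microbead libraries were the lower ones. APOE3 microbead libraries had 47.5, 64.6 and 60.6 CPM, against 34.3, 21.1, 71.1 and 52.8 in APOE3 sham, which overlapped. The log2 fold change was -1.21 ± 0.33 in APOE4 (SE, edgeR adjusted p = 0.172, unadjusted p = 0.000905) and 0.38 ± 0.31 in APOE3 (adjusted p = 0.668), with an interaction of -1.59 ± 0.45 (adjusted p = 0.205). APOE4 sham stood above APOE3 sham by 0.74 ± 0.28 on the log2 scale (edgeR adjusted p = 0.962), with overlap.

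Dnajb1 encodes the J-domain partner HSP40 that activates inducible HSP70 (ENSMUSG00000005483, chromosome 8, 83608193 to 83612653, plus strand). It had 52.3, 41.6 and 50.1 CPM in APOE4 microbead, against 126, 76.2, 110.3 and 71.7 CPM in APOE4 sham. Every APOE4 microbead library lay below every APOE4 sham library. APOE3 microbead had 43.0, 85.7 and 51.7 CPM, against 63.5, 52.7, 52.8 and 58.8 in APOE3 sham, with the highest and the lowest of these 7 libraries both in the microbead group. The log2 fold change was -1.0 ± 0.28 in APOE4 (SE, edgeR adjusted p = 0.191, unadjusted p = 0.00115) and 0.12 ± 0.27 in APOE3 (adjusted p = 0.927), with an interaction of -1.12 ± 0.39 (adjusted p = 0.323). Dnajb1 was the 1 tested chaperone gene whose APOE4 sham libraries all lay above the APOE3 sham libraries in CPM. This held for 2.16% of all genes. In TPM the sham groups overlapped (7.21 to 14.4 in APOE4, 4.06 to 9.46 in APOE3). The Dnajb1 log2 fold change between shams was 0.75 ± 0.25 (edgeR adjusted p = 0.962, unadjusted p = 0.00515).

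**Figure D4:**
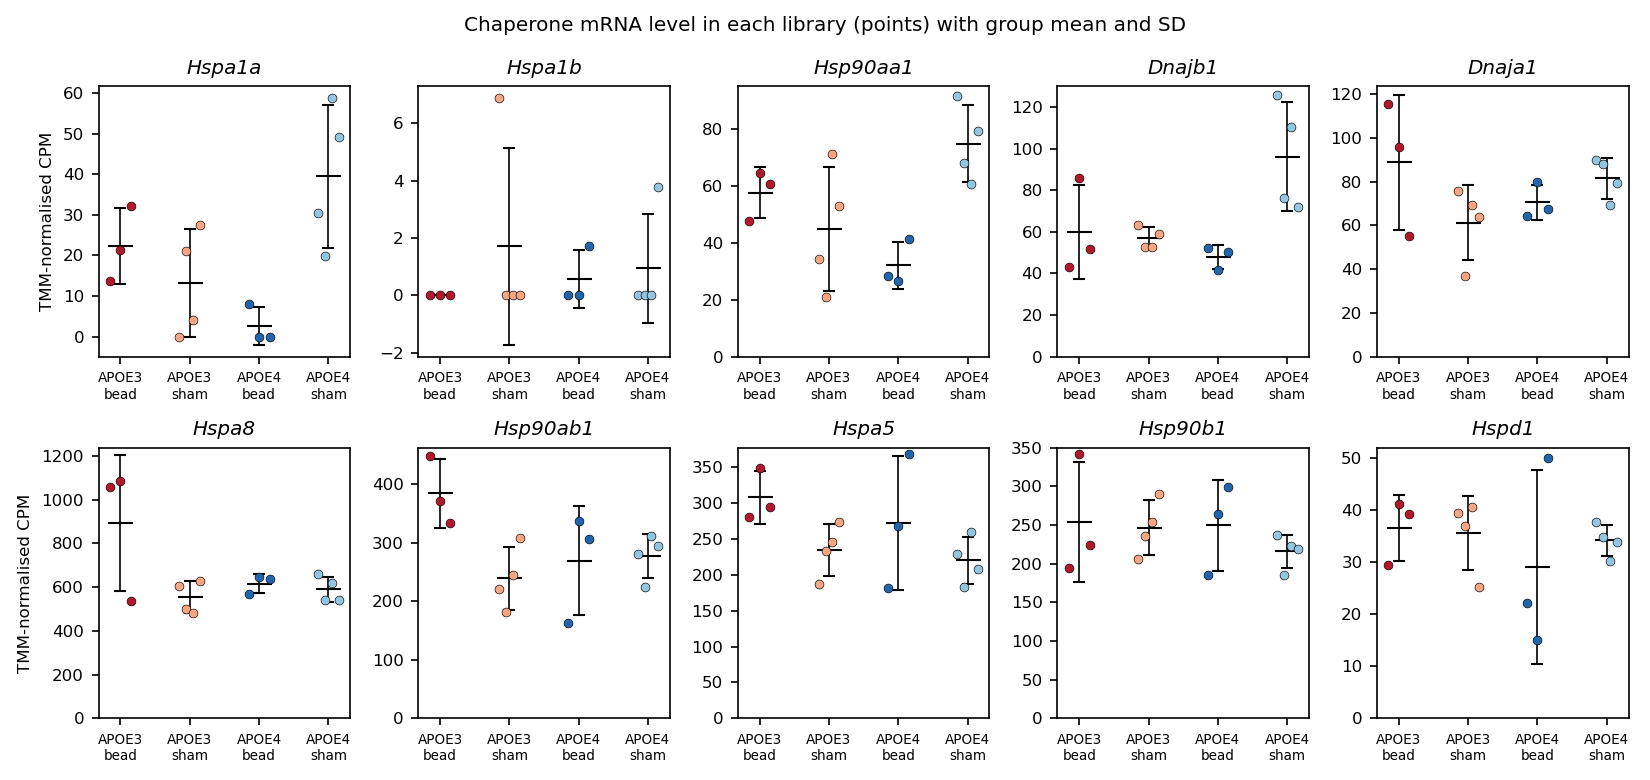
TMM-normalised CPM of the 10 genes in each library (points), with the group mean and SD (bars; the SD of a group near 0 runs below 0); panels have their own linear axes. Hspa1a, Hsp90aa1 and Dnajb1 are lowest on average in APOE4 microbead (2.68, 32.1 and 48.0 CPM) and highest in APOE4 sham (39.5, 74.8 and 96.0 CPM), and Hspa8 stands above 1000 CPM in 2 of the APOE3 microbead libraries.

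The immediate-early and dissociation genes, another set induced by handling, were measured beside these. Their summed level was 1076, 1117 and 3043 CPM in the APOE4 microbead libraries, against 1619, 1047, 3712 and 1609.6 in APOE4 sham, with overlap, and edgeR called 0 of the 18 tested in any of the 5 comparisons, as did DESeq2 among the 11 to 18 to which it gave an adjusted p. Of these 18 genes, 2 had an unadjusted p under 0.05 in APOE4 microbead against sham (6.5% of all genes), Rhob (-0.84 ± 0.28) and Klf2 (-1.75 ± 0.71). There was 1 in APOE3 microbead against sham (14.7% of all genes), 1 between shams (4.4%), 0 in the interaction (8.17%) and 0 between microbead groups (9.74%). The part of dissociation in the chaperone values was not tested.

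Hspa8 encodes the constitutive HSC70, which also uncoats clathrin vesicles and delivers proteins to lysosomes (ENSMUSG00000015656, chromosome 9, 40800984 to 40810087, plus strand). It had 1059, 1082 and 535 CPM in APOE3 microbead, against 606, 501, 482 and 627 CPM in APOE3 sham. In CPM, APOE3 microbead 1 and 2 were the highest of all libraries, and APOE3 microbead 3 lay inside the sham range. That ranking depends on the scaling (TMM factors of 0.7026 in APOE3 microbead 1 and 1.351 in APOE3 sham 4). In TPM, Hspa8 was at 89.7, 233.4 and 66.5 in APOE3 microbead, against 62.6, 54.0, 56.6 and 170.4 in APOE3 sham. The log2 fold change was 0.69 ± 0.20 (SE, edgeR adjusted p = 0.0433), a rise to 892 ± 310 CPM in APOE3 microbead, against 554 ± 73.2 in APOE3 sham (SD, n = 3 and 4).

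The Hspa8 call did not hold in 16 of 21 alternative settings. Without APOE3 microbead 1 the value was 0.55 (edgeR adjusted p = 0.198), without APOE3 microbead 2 it was 0.52 (adjusted p = 0.273), and without both it was -0.05. That last fit has 1 APOE3 microbead library, so its adjusted p of 0.993 takes the spread from the other groups. The 2 libraries with high Hspa8 in CPM were those with the highest monocyte marker sums, 1548 and 757 CPM, against 283 in APOE3 microbead 3. The part of other myeloid cells in this difference was not tested. In bulk RNA, a change in the mix of cells and a change of RNA per cell cannot be told apart. In APOE4 the levels were 567, 645 and 635 CPM with microbeads, against 659, 542, 617 and 542 with sham, which overlapped (0.06 ± 0.20, edgeR adjusted p = 0.994). The interaction was -0.62 ± 0.29 (adjusted p = 0.571), and APOE4 microbead stood -0.54 ± 0.22 from APOE3 microbead (adjusted p = 0.38; 0.0287 without APOE3 microbead 3).

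**Figure D5:**
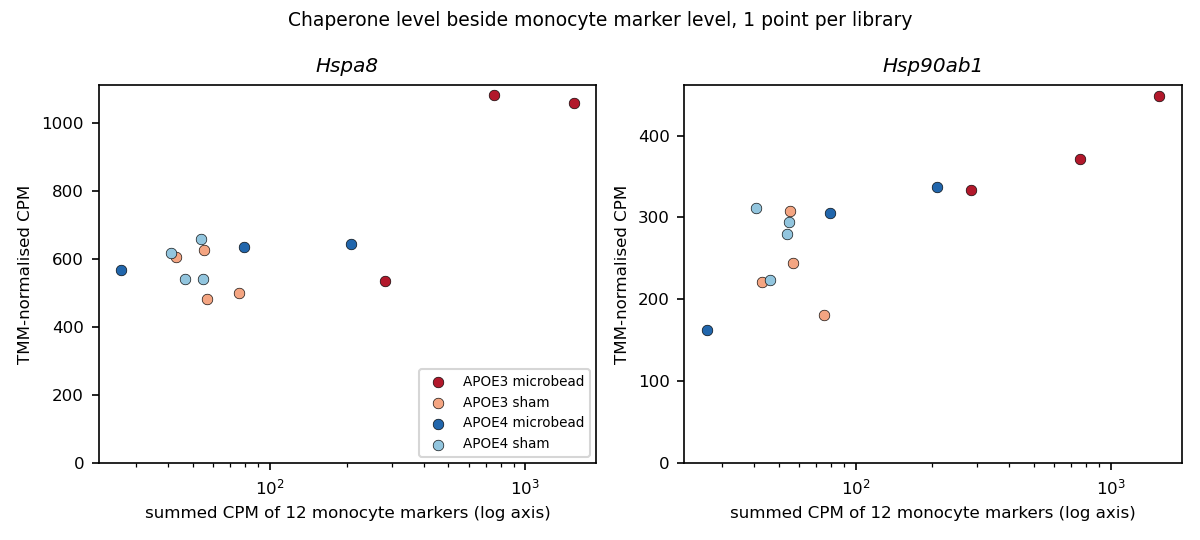
Hspa8 and Hsp90ab1 in TMM-normalised CPM (vertical, linear from 0) against the summed CPM of 12 monocyte markers (horizontal, log axis), 1 point per library, coloured by group. The 2 libraries with Hspa8 above 1000 CPM have marker sums of 757 and 1548 CPM, and the third APOE3 microbead library, at 283 CPM of markers, has 535 CPM of Hspa8.

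Hsp90ab1 encodes the constitutive HSP90 (ENSMUSG00000023944, chromosome 17, 45567775 to 45573271, minus strand). It had 448, 371 and 333 CPM in APOE3 microbead, against 222, 181, 244 and 309 CPM in APOE3 sham. In CPM these groups did not overlap. Hsp90ab1 and Hspa5 were the 2 tested chaperone genes with every APOE3 microbead library above every APOE3 sham library in CPM. This held for 7.63% of all genes. In TPM both genes overlapped. Hsp90ab1 spanned 47.3 to 114.5 TPM with microbeads, against 23.3 to 105.4 with sham, and Hspa5 23.5 to 89.6, against 18.4 to 74.6. The log2 fold change of Hsp90ab1 was 0.68 ± 0.23 (SE, edgeR adjusted p = 0.0817), about as large as that of Hspa8 but past the threshold in 2 alternatives alone, without APOE3 sham 4 (adjusted p = 0.0411) or APOE4 microbead 1 (0.0483). Its 3 APOE3 microbead libraries stood in the order of their monocyte marker sums (1548, 757 and 283 CPM), as did those of Dnaja1. Those of Hspa8, Hspa5, Hsp90b1, Hsp90aa1, Dnajb1 and Hspa1a did not stand in that order, and Hspd1 is not placed here. With 3 libraries such an order easily arises by chance, and its share over all genes was not counted. The part of the monocyte markers was not tested. In APOE4, Hsp90ab1 had 163, 337 and 306 CPM with microbeads, against 280.0, 224, 311 and 294 with sham, and APOE4 microbead 1 was the lowest of all 14 libraries. That difference was -0.04 ± 0.23 (edgeR adjusted p = 0.998), and the interaction was -0.72 ± 0.32 (adjusted p = 0.544).

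Dnaja1 encodes a J-domain partner of HSC70 (ENSMUSG00000028410, chromosome 4, 40722150 to 40737149, plus strand). It had 115, 95.8 and 55.3 CPM in APOE3 microbead, against 75.6, 36.9, 69.1 and 63.6 CPM in APOE3 sham. As for Hspa8 in CPM, libraries 1 and 2 were the high ones and library 3 lay inside the sham range. The log2 fold change was 0.53 ± 0.26 in APOE3 (SE, edgeR adjusted p = 0.359) and -0.21 ± 0.27 in APOE4 (adjusted p = 0.958). In APOE4 the levels were 64.4, 79.8 and 67.4 CPM with microbeads, against 89.7, 87.8, 69.4 and 79.3 with sham.

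Hspa5 encodes BiP, the ER HSP70 that holds the sensors of the unfolded protein response inactive (ENSMUSG00000026864, chromosome 2, 34771970 to 34777547, plus strand). It had 281, 349.7 and 294 CPM in APOE3 microbead, against 187, 234, 246 and 274 CPM in APOE3 sham. In CPM these did not overlap, though the lowest microbead and the highest sham library were close. In TPM they overlapped (23.5 to 89.6 with microbeads, 18.4 to 74.6 with sham). The log2 fold change of 0.39 ± 0.22 did not pass (SE, edgeR adjusted p = 0.434). In APOE4 it had 181, 268 and 368 CPM with microbeads, against 229.8, 184, 259.7 and 208 with sham, so that the lowest and the highest of those 7 libraries were both in the microbead group (0.31 ± 0.22, adjusted p = 0.897). Its interaction was -0.08 ± 0.31 (edgeR adjusted p = 0.981).

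Hsp90b1 encodes GRP94, the ER HSP90 needed for Toll-like receptors and integrins to fold (ENSMUSG00000020048, chromosome 10, 86690209 to 86705509, minus strand). It had 195, 342 and 225 CPM in APOE3 microbead, against 206, 235, 254 and 290.5 CPM in APOE3 sham, and the groups overlapped (0.05 ± 0.21, SE, edgeR adjusted p = 0.97). In APOE4 it had 185, 264 and 299 CPM with microbeads, against 237, 185, 222 and 219 with sham (0.21 ± 0.22, adjusted p = 0.945). Between genotypes, neither ER gene had an unadjusted p under 0.05 under either injection. Hspd1, the mitochondrial HSP60 that folds imported proteins with Hspe1 (ENSMUSG00000025980, chromosome 1, 55077835 to 55088243, minus strand), averaged 36.6 ± 6.31 CPM in APOE3 microbead and 35.6 ± 7.08 in APOE3 sham. It averaged 29.1 ± 18.6 CPM in APOE4 microbead and 34.2 ± 3.07 in APOE4 sham, where 2 microbead libraries, at 22.1 and 15 CPM, were the lowest of all 14. Its log2 fold change was 0.08 ± 0.34 in APOE3 and -0.23 ± 0.36 in APOE4 (SE, edgeR adjusted p = 0.969 and 0.973).

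Among the 36 pairs of tested chaperone genes, the ER pair Hspa5 and Hsp90b1 had the highest Pearson's r across the 14 libraries, and Hspa5 and Hsp90ab1 the highest Spearman's rho. For Hspa5 and Hsp90b1, Pearson's r of log2 CPM was 0.779 (permutation p = 0.00102, adjusted over 36 pairs 0.0367) and Spearman's rho 0.705 (permutation p = 0.00602, adjusted 0.108), 0.847 for Pearson's r of the deviations from group means, and 0.688 without the 2 libraries farthest from the Hspa5 median. Hspa5 and Hsp90ab1 had r = 0.708 (permutation p = 0.00458, adjusted 0.0813) and rho = 0.793 (permutation p = 0.00122, adjusted 0.0439), with r = 0.703 after leaving out the 2 farthest libraries and 0.682 for the deviations from group means. Of the 36 pairs, 1 passed by Pearson's r and 1 by Spearman's rho. Hspa8 and Dnaja1 had r = 0.681 (permutation p = 0.00903, adjusted 0.0813) and rho = 0.653 (permutation p = 0.0133, adjusted 0.145), with r = 0.472 without APOE3 microbead 1 and 2, the 2 farthest libraries, and 0.694 for the deviations from group means. Hsp90aa1 and Dnajb1 had r = 0.624 (permutation p = 0.0165, adjusted 0.119) and rho = 0.64 (permutation p = 0.0161, adjusted 0.145), with r = 0.57 without the 2 farthest libraries and 0.196 for the deviations from group means.

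The genes outside the 10 whose log2 CPM followed Hspa8 most closely over the 14 libraries were H2-DMb1 (Pearson's r = 0.913), Fxyd5 (0.91) and Smpdl3a (0.882), with Spearman's rho of 0.609, 0.697 and 0.701. Those most like Hspa5 were Id2 (r = 0.838, rho = 0.833), Ccl2 (0.828 and 0.873) and Fgl2 (0.816 and 0.758). They were chosen as the highest among all genes tested, so these values are a description without a test.

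Other chaperones and their partners, 118 genes listed by function, were read from the same fit, and 86 of them were tested. In APOE3 microbead against sham 1 of the 86 was called, against 5.15% of all genes. This was Pfdn5, a prefoldin subunit that hands actin and tubulin to the CCT chaperonin, which rose. It had 97.3, 75.7 and 55.3 CPM in APOE3 microbead, against 41.2, 43.9, 40.6 and 34.8 in APOE3 sham, with no overlap (0.92 ± 0.26, edgeR adjusted p = 0.036), and DESeq2 did not call it (adjusted p = 0.0615). The 3 microbead libraries stood in the order of their monocyte marker sums (1548, 757 and 283 CPM), whose part was not tested. An order of 3 libraries easily arises by chance. The Pfdn5 call was lost without APOE3 microbead 1 (0.73, edgeR adjusted p = 0.218), without APOE3 microbead 2 (0.91, 0.112) and without any 1 of the 4 APOE3 sham libraries (0.84 to 0.96, 0.0616 to 0.102), alternatives chosen after its values were seen. In the other 4 comparisons edgeR called 0 of the 86. At an unadjusted p under 0.05 there were 6 in APOE3 microbead against sham (6.98%, against 14.7% of all genes) and 6 in APOE4 microbead against sham (6.98%, against 6.5%). There were 3 in the interaction (3.49%, against 8.17%), 6 between shams (6.98%, against 4.4%) and 0 between microbead groups (against 9.74%). DESeq2 called 0 in all 5 comparisons, but gave an adjusted p to 55 of the 86 in APOE4 microbead against sham, 11 in the interaction and 31 between microbead groups. Hspe1, the HSP10 partner of Hspd1, averaged 32.5 ± 5.05 CPM in APOE3 microbead and 15.7 ± 2.08 in APOE3 sham (1.06 ± 0.35, edgeR adjusted p = 0.0855).

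At an unadjusted p under 0.05, the share of all genes was 14.7% in APOE3 and 6.5% in APOE4 microbead against sham, and the counts of each list are read against these. Of 17 HSP90 co-chaperones, 2 had an unadjusted p under 0.05 in APOE3 and 1 in APOE4 microbead against sham. Those in APOE3 were Fkbp4, an immunophilin of steroid receptor complexes (-0.83 ± 0.30, edgeR adjusted p = 0.127), and Chordc1 (0.68 ± 0.29, adjusted p = 0.244), and in APOE4 Fkbp5 had 1.02 ± 0.47 (adjusted p = 0.763). Of 14 HSP70 co-chaperones, 0 in APOE3 and 2 in APOE4 had an unadjusted p under 0.05, St13, which stabilises the HSC70 complex, at -0.46 ± 0.22 and Bag6 at -0.84 ± 0.41 in APOE4 (edgeR adjusted p = 0.747 and 0.759). Of 3 other cytosolic HSP70 or HSP110 genes, 1 had an unadjusted p under 0.05 in APOE3 and 0 in APOE4. This was Hsph1, the HSP110 exchange factor of HSP70, with 1.31 ± 0.54 in APOE3 (edgeR adjusted p = 0.211). Of 25 ER chaperones and foldases, 1 in APOE3 and 1 in APOE4 had an unadjusted p under 0.05, Calr, calreticulin, at 0.47 ± 0.21 in APOE3 (edgeR adjusted p = 0.257) and Pdia6 at 0.61 ± 0.24 in APOE4 (adjusted p = 0.582). In APOE4, 21 of these 25 had values above 0 with a median of 0.20, against -0.00 over all genes, though with library totals in place of TMM the all-gene median was -0.23. Of 13 mitochondrial chaperones, 1 in APOE3 (Hspe1) and 0 in APOE4 had an unadjusted p under 0.05. Of 10 genes listed here as small heat shock proteins, 1, Hspb11, had enough reads to be tested (1.02 ± 0.44 in APOE4, edgeR adjusted p = 0.66). Its value does not stand for that family.

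Of 17 stress response regulators tested, 1, Edem1, was called in APOE3 microbead against sham, by edgeR and by DESeq2. With edgeR 5.15% of all genes were called there, so 1 of 17 is near the background, and edgeR called 0 in the other comparisons. At an unadjusted p under 0.05 there were 1 in APOE3 (14.7% of all genes) and 2 in APOE4 microbead against sham (6.5%). Edem1, which directs misfolded glycoproteins out of the ER for degradation, fell to 22.6, 50.1 and 67.7 CPM in APOE3 microbead, against 141, 144, 114 and 127 in APOE3 sham (-1.46 ± 0.28, edgeR adjusted p = 0.00124). The microbead libraries with less Edem1 had more monocyte markers (1548, 757 and 283 CPM in libraries 1 to 3) and less of the microglial markers (9006, 13285 and 14532 CPM), whose part was not tested. Such an order of 3 libraries easily arises by chance. The value was -1.17 without APOE3 microbead 1 (edgeR adjusted p = 0.0122) and -0.96 without both APOE3 microbead 1 and 2 (adjusted p = 0.343, with 1 APOE3 microbead library left). Its APOE4 levels were 103, 58.2 and 72.6 CPM with microbeads, against 109.5, 97.7, 146 and 115 with sham, with overlap (-0.60 ± 0.27, adjusted p = 0.691). Hsf2, a heat shock factor, had -1.17 ± 0.55 in APOE4 (edgeR adjusted p = 0.736).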

How the data were processed

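The submitters' processing notes name Salmon 1.4.0, R 4.0.3, DESeq2 1.30.1 and the build mm10. The authors deposited estimated counts per transcript for each library and 1 series table of TPM per gene. Gene TPM summed from a library's file lay within 1% of the series column of that name for 99.1% to 99.47% of genes at 5 TPM or more. Expected counts were summed per gene with GENCODE M21 (115945 of 116945 transcripts, 1000 without a gene) and rounded to whole numbers. The filter on low counts was filterByExpr over the 4 groups, with a minimum count of 10 and a minimum total of 15, and 7605 genes passed. The edgeR 4.0.16 quasi-likelihood test (robust, TMM, R 4.3.3) was fitted on all 14 libraries with 4 group means, two-sided, with Benjamini-Hochberg adjustment over all genes and calls at 0.05. The SE follows from the F statistic. Adjusted p-values are of this test unless another is named.

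Permutation tests of the pairs used 100000 resamples and were two-sided. Libraries were permuted freely over the 4 groups, so these p-values also take in group differences that a pair shares. No p-value was computed for the deviations from group means. Alternatives were DESeq2 1.42.0, limma 3.58.1 on log2(TPM + 1), other scalings, no filter, a block for the replicate number and libraries left out. The edgeR fit was tested on simulated data for APOE3 microbead against APOE3 sham, and the other comparisons and steps were not. The simulated libraries shared a mean profile of genes that had already passed the filter. They could therefore not test the filter, or the TMM scaling where libraries differ in composition as here. Depth limits precision: a count of 0 allows up to 3 counts. The genes and lists were chosen with earlier results of these data known. Named beside the 10 genes were called list members, the 2 per list with the smallest p in each microbead comparison where they illustrate the list, and the 3 genes most like Hspa8 and Hspa5. Those most like Hspa1b could not be had, since it was not tested.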

Additional observations from a re-analysis of the deposited data

Results flagged for a closer look

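In both sham groups 1 of 4 libraries stood apart from the others in Hspa1b. APOE4 sham 4 was at 3.77 CPM and APOE3 sham 1 at 6.87 CPM, and the other 3 sham libraries of each genotype were at 0. These rest on 2 and 4 reads. With the other 3 libraries at 0, any library with a read would stand apart in this way, so the usual rate of about 1 in 20 groups by chance does not hold here and nothing is read from it. APOE3 sham 1 is also the sham library with 0 reads of Hspa1a.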

How the results depend on the processing

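Of 950 log2 fold changes under other settings, 886 kept their direction and side of the threshold. Library totals moved the median log2 fold change of all genes to -0.23 in APOE4 microbead against sham, -0.20 in the interaction and 0.16 between shams, and limma on TPM to -0.29, -0.29 and 0.19, with -0.12 between microbead groups. No cause below was tested. DESeq2 gave 1, 5 and 2 of the 9 chaperone genes no adjusted p in APOE4 microbead against sham, the interaction and between microbead groups.

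In APOE3 microbead against sham, 392 genes were called, but 149 with library totals, 40 with limma and 37 without both APOE3 microbead 1 and 2 (a fit resting on 1 APOE3 microbead library), with 225 to 478 over single libraries left out, the lowest without APOE3 microbead 2. The 1 chaperone called became 0 with library totals, limma, both libraries out, and 0 to 2 with single libraries out. For APOE4 microbead against sham, 15 became 34 with DESeq2, 3 with library totals, 53 with no filter, 2 with limma, 26 without both libraries and 2 to 17 with single libraries out; the chaperones called became 1 with no filter and 0 to 1 with single libraries out, the 1 without APOE3 sham 1. For the interaction, 7 became 57, 2, 29, 3 and 1 under the same settings and 0 to 30 with single libraries out, with 1 chaperone with no filter. Between shams, 1 became 0 with library totals, 12 with no filter, 0 without both libraries and 0 to 1 with single libraries out. Between microbead groups, 44 became 73, 14, 111, 17 and 2 and 11 to 121 with single libraries out; chaperones called became 1 with no filter and 0 to 1, the 1 without APOE3 microbead 3.

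With the replicate number as a block, genes called were 293, 5, 3, 0 and 33 in the 5 comparisons, no chaperone was called (0), Hspa8 in APOE3 had an edgeR adjusted p of 0.115, and the log2 fold change of Hsp90ab1 in APOE4 turned to 0.036 (adjusted p = 0.999). The numbers were not taken as pairs: 19 same-numbered pairs of libraries correlated at -0.144 to 0.099.

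The Pfdn5 call in APOE3 held in 9 of 21 alternatives and that of Edem1 in 19 of 21, chosen after seeing the data. Log2 fold changes that changed sign were mostly near 0. Without both APOE3 microbead 1 and 2, in APOE3 Hspa8 was at -0.053, Hsp90b1 -0.14, Dnaja1 -0.15 and Dnajb1 -0.14, in the interaction Hspa8 0.13 and Hspa5 0.003, and between microbead groups Hspa8 0.21, Hsp90b1 0.16 and Dnaja1 0.36. With library totals, Hspa8 was at -0.17 and Hsp90b1 at -0.012 in APOE4, Hsp90b1 at -0.088 in the interaction, and Hspa5 0.051 and Hspd1 0.15 between shams. With limma, Hsp90b1 was at -0.013 in APOE3, Hspa8 -0.45 and Hsp90b1 -0.20 in APOE4, Hsp90b1 -0.19 in the interaction, and Hspa5 0.047 and Hspd1 0.10 between shams. With single libraries out, the lowest and highest values in APOE3 were Hsp90b1 -0.23 to 0.20, Dnajb1 -0.26 to 0.29 and Hspd1 -0.074 to 0.20, in APOE4 Hsp90ab1 -0.23 to 0.22 and Hspd1 -0.89 to 0.10, in the interaction Hspa5 -0.36 to 0.14 and Hspd1 -0.96 to 0.025, between shams Hspd1 -0.19 to 0.021 and between microbead groups Hspa5 -0.47 to 0.042, Hsp90b1 -0.20 to 0.25 and Dnajb1 -0.55 to 0.011.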
